A study of Mus musculus with 8 samples.

Results

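Small nucleolar RNA (snoRNA) genes were measured in total liver RNA of hypophysectomized mice over 240 min after 1 pulse of growth hormone (GH). They are the genes of the deposited table whose symbol starts with Snora or Snord and whose mean FPKM, a read density per base of gene length that is scaled to a library's mapped reads, was above 0 in at least 1 of the 4 groups. Each gene was thus chosen by its measured level, with the symbol and level as the only criteria. The set itself was chosen with earlier results of these data known. The rule found 101 of 24197 genes, 35 of the H/ACA class (Snora) and 66 of the C/D class (Snord). A further 4 such symbols, Snora35, Snord116, Snord116l1 and Snord116l2, are listed at 0 in all 4 groups. Just inside that limit lay Snord90, with 1 read over all 8 libraries, and Snord64, with 2 reads.

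The mice were males of the outbred CD-1 (ICR) strain, hypophysectomized at 7 weeks of age and 11 weeks old. The groups were hypophysectomized mice without GH (Hypox) and those whose livers were taken 30, 90 or 240 min after recombinant rat GH was injected once into the peritoneum, at 125 ng/g. One label calls the Hypox mice untreated and another says that they received vehicle. Each group had 2 libraries, each from a pool of 4 livers, so that the spread between libraries is the spread between pools, and animals within a pool cannot be told apart. Removal of the pituitary, which all 4 groups share, takes away the animals' own GH and the other pituitary hormones. The same Hypox libraries serve as the control of all 3 times, so the 3 comparisons are not independent, and GH cannot be told apart from the effects of handling or hour of the day at each time.

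snoRNAs are short, stable nuclear RNAs that guide the chemical modification of ribosomal RNA, and a few take part in cutting the ribosomal precursor. C/D snoRNAs carry a box C near the start and a box D near the end and direct methylation of ribose by fibrillarin. H/ACA snoRNAs fold into a pair of hairpins, with box H at the hinge and the ACA box near the end, and direct conversion of uridine to pseudouridine by dyskerin. Most vertebrate snoRNAs lie in introns of host genes, many of them genes of ribosomal proteins or translation factors, and are trimmed out of the spliced intron, while proteins bound to them protect them from decay.

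The sequences of 9 of the 10 snoRNA genes that passed limma's test in any comparison or were called in the authors' deposited table are shown here because of those calls. They were read from GENCODE M21 transcripts on mouse build GRCm38, in which 100 of the 101 genes had a transcript of the same symbol, and are written 5′ to 3′ as DNA. In H/ACA sequences, capitals mark the ANANNA nearest the middle of the sequence, searched in the middle of 3 equal parts of its length, and an ACA within the last 8 bases. Snora23 is at chr7:110046364-110046547 on the plus strand, Snora81 at chr16:23110756-23110933 on the plus strand, Snora64 at chr17:24720772-24720905 on the plus strand and Snora21 at chr11:97781639-97781775 on the minus strand. Snora44 is at chr4:132309941-132310069 on the plus strand, Snora26 at chr5:74093530-74093650 on the plus strand and Snora3 at chr7:109520120-109520251 on the plus strand.
Snora23: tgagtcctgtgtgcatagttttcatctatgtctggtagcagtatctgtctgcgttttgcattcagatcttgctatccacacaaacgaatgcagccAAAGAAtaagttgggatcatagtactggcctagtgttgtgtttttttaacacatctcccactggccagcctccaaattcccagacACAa
Snora81: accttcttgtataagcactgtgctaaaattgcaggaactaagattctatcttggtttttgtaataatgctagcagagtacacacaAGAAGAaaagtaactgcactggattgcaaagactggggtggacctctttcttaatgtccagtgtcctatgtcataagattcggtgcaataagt
Snora64: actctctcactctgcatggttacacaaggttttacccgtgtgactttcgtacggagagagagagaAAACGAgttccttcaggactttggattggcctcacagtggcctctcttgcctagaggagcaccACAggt
Snora21: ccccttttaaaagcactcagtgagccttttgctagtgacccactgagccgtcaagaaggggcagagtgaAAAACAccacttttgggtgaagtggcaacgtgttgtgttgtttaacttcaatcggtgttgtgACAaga
Snora44: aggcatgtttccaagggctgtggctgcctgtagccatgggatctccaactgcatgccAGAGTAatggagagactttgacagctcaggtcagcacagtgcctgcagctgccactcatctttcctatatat
Snora26: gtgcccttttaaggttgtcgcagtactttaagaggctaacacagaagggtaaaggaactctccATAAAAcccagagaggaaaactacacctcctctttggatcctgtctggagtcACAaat
Snora3: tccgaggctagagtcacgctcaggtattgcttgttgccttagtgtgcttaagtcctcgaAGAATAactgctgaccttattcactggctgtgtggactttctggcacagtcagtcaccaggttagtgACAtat
The last 8 bases of Snora81 and of Snora44 hold no ACA.

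In C/D sequences, capitals mark a TGATGA within the first 25 bases (box C) and the last CTGA that starts within the last 25 bases (box D). Snord17 is at chr2:144265979-144266216 on the minus strand, Snord15b at chr7:99479563-99479707 on the minus strand and Snord22 at chr19:8725866-8725991 on the plus strand. Snord22 is shown for its abundance.
Snord17: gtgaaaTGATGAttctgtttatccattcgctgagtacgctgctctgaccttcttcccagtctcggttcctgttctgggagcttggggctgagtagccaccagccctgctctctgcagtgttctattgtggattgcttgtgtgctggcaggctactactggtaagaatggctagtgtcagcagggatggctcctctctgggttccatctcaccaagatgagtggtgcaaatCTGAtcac
Snord15b: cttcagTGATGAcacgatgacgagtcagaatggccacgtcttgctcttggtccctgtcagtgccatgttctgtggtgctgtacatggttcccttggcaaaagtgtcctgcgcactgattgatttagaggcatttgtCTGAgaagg
Snord22: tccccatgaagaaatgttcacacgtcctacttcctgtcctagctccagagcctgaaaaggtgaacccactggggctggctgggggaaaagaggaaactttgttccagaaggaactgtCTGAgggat
Snord22 has no box C motif of these letters in its window. The motifs were searched on the RNA's own strand only, and those of boxes C and D can share bases. The end motif of H/ACA genes was found in 94.3% of the 35 H/ACA genes, in 9.23% of the 65 C/D genes with a sequence and in 46.8% of all 1507 GENCODE snoRNA transcripts. The box H motif was found in 91.4%, 40% and 79.5% of the same sets, so this motif is common outside the H/ACA class. The box D motif was found in 98.5% of the C/D genes, 14.3% of the H/ACA genes and 57.5% of all snoRNA transcripts, and the box C motif in 63.1%, 0% and 21.8%. The GENCODE transcript was longer than the length the authors counted over for 81 genes and equal for 10, among them Snora23, Snora26, Snord15b and Snord22. Snora44, for example, has 129 bases in GENCODE and 117 counted bases.

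snoRNA genes were thinly covered. All 101 together held 16053 reads over the 8 libraries, 7985 in H/ACA and 8068 in C/D genes, and the median gene had 40 reads in all, 115 for H/ACA and 24.5 for C/D. Mapped reads, as inferred from the deposited means, numbered 34452570 and 32802312 in Hypox libraries, 27002584 and 20584956 in those of 30 min, 32083366 and 15935303 in those of 90 min and 25584732 and 21382154 in those of 240 min, so that each group has a deeper and a shallower library. A gene was tested if it had at least 10 reads in at least 2 libraries, which 43 snoRNA genes did (26 H/ACA and 17 C/D). The other 58, 9 H/ACA and 49 C/D, have values but no test. Snora69 and Snord100 were tested through the reads of 1 group only, Hypox for Snora69 and 240 min for Snord100. Each is high in that group: the authors' ratios over Hypox for Snora69 were 0.427, 0.409 and 0.521 at 30, 90 and 240 min. Their places in the counts and medians of comparisons with that group thus come in part from the filter. The shallower 90 min library is the least deep of all and held 681 snoRNA reads, against 1228 to 3071 in the others. The shallower 30 min library had 19470 CPM on Rn45s, the gene of the ribosomal precursor RNA, before scaling, against 6303 to 11881 in the other 7. CPM is the share of a library's mapped reads, set to a common total. Reads of the precursor and of mature ribosomal RNA left after depletion were not told apart. In their sample names, 1 Hypox pool carries another experiment prefix than the other 7 pools, and which of the 2 Hypox libraries it is was not worked out.

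Levels between genes are compared here as FPKM, averaged over the 4 groups. They ran from 0.0534 to 68.0 FPKM, with a median of 4.83 FPKM for H/ACA genes and 1.84 FPKM for C/D genes. The 8 most abundant C/D genes were Snord17 (68.0 FPKM), Snord15b (46.3), Snord22 (34.1), Snord104 (20.2), Snord15a (7.79), Snord2 (7.05), Snord96a (6.73) and Snord89 (6.27). Snord17, Snord15a, Snord15b and Snord104 are known in human as guides for methylation of the large ribosomal subunit RNA. Snord22, known as U22, is needed for processing of the small subunit RNA in Xenopus. The 8 most abundant H/ACA genes were Snora74a (38.8 FPKM), Snora23 (29.0), Snora81 (18.2), Snora68 (16.3), Snora78 (14.6), Snora61 (12.5), Snora44 (10.8) and Snora70 (10.8). Snora74a, Snora23, Snora81 and Snora68 guide pseudouridylation of the large subunit RNA in human, and Snora44 and Snora70 of the small subunit RNA.

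Reads were concentrated in few genes. Snord17 alone held 41.0% of all C/D reads, and the 4 most read C/D genes held 74.4%. Among H/ACA genes, Snora74a held 20.5% and the 4 most read held 50.2%. The 64 genes under 100 counted bases had a median of 1.80 FPKM, against 5.22 FPKM for the 37 longer ones, although FPKM divides by length. Among C/D genes, the 5 of at least 100 bases had a median of 34.1 FPKM and the 61 shorter ones 1.69 FPKM. Among H/ACA genes the order was reversed, with 4.68 FPKM for the 32 of at least 100 bases and 12.5 FPKM for the 3 shorter ones. Most of the shorter genes were thus C/D and most of the longer ones H/ACA, so the pooled medians do not tell length and class apart. Over both classes, the 64 shorter genes also had fewer reads, a median of 23.5 against 124, and the size selection applied to the libraries was not among the sources used.

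**Figure D1:**
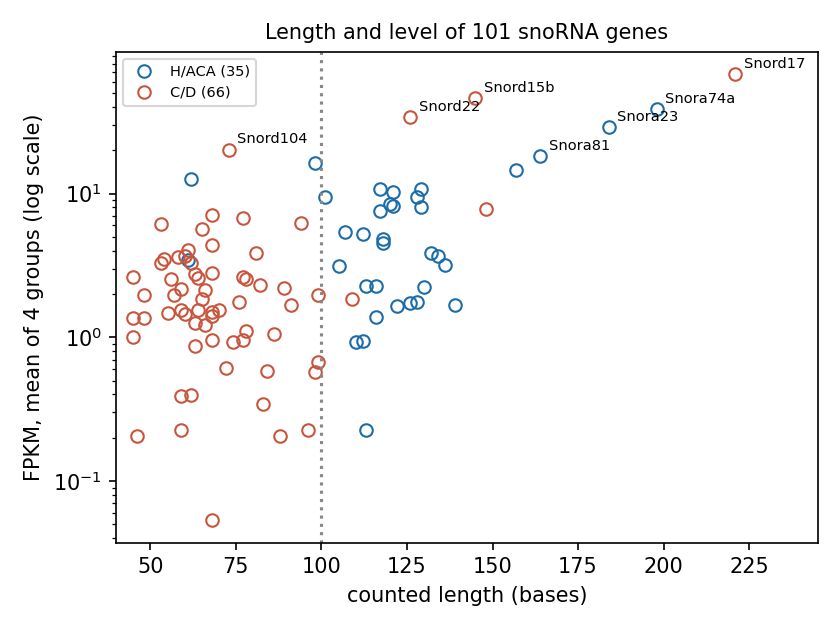
Counted length in bases (x axis) and FPKM averaged over the 4 groups (y axis, log scale) of the 101 snoRNA genes, 1 point a gene, blue for H/ACA and red for C/D; the dotted line is at 100 bases. Of the C/D genes under 100 bases, Snord104 is the highest at 20.2 FPKM, while Snord17, the longest counted at 221 bases, reached 68.0 FPKM.

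Summed snoRNA reads were lowest at 90 min in both classes, and at 240 min they were close to those of Hypox. Levels within a gene or a class are compared between libraries as CPM after scaling. H/ACA genes summed to 44.0 and 45.0 CPM in Hypox, 37.7 and 31.4 CPM at 30 min, 29.0 and 22.5 CPM at 90 min and 45.5 and 40.1 CPM at 240 min, each pair with the deeper library first. C/D genes summed to 44.2 and 43.9 CPM in Hypox, 34.7 and 33.7 CPM at 30 min, 32.2 and 19.4 CPM at 90 min and 41.1 and 49.8 CPM at 240 min. For both classes the 30 and 90 min libraries all lay below both Hypox libraries, and of the 240 min libraries 1 lay above and 1 below both.

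In ratios of geometric means, the H/ACA sum was 1.74-fold lower at 90 min than in Hypox and the C/D sum 1.76-fold lower. At 30 min the sums were 1.29-fold lower in both classes. For H/ACA genes, the log2 ratio at 30 min was -0.37 with both libraries, -0.24 without the shallower 30 min library and -0.50 without the deeper one. These sums got no test. In bulk liver RNA, fewer cells of a type and less RNA per cell cannot be told apart. The shallower 90 min library set part of the C/D value: without it the log2 ratio of the C/D sums at 90 min was -0.45, against -0.82 with it, and for H/ACA -0.62 against -0.80. Without Snora74a, the most read of its class, the H/ACA sum was 1.52-fold lower at 30 min and 2.01-fold lower at 90 min. Without Snord17 the C/D sum was 1.19-fold lower at 30 min and 1.53-fold lower at 90 min. On the log2 scale these are -0.25 and -0.62, beside spreads between replicate libraries of 0.28 and 0.54. The C/D sums without Snord17 were 21.2 and 27.7 CPM in Hypox and 20.1 and 20.5 CPM at 30 min. They were 19.9 and 12.6 CPM at 90 min and 22.9 and 34.4 CPM at 240 min. At 240 min the log2 ratio to Hypox was 0.21 for C/D without Snord17, beside a spread of 0.50. For H/ACA without Snora74a it was -0.12, beside a spread of 0.12.

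**Figure D2:**
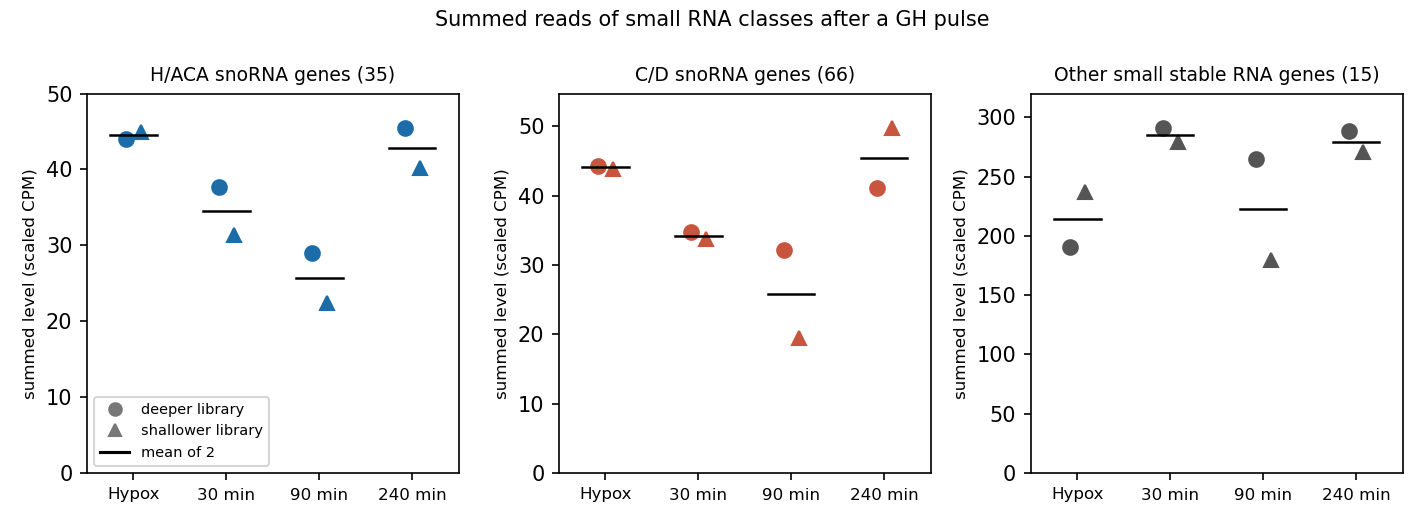
Summed scaled CPM (y axis, from 0) of H/ACA snoRNA genes, C/D snoRNA genes and 15 other small stable RNA genes in Hypox and at 30, 90 and 240 min after GH (x axis). Circles are the deeper and triangles the shallower library of a group, and bars the mean of the 2; both snoRNA classes are lowest at 90 min, at 22.5 and 29.0 CPM for H/ACA genes and 19.4 and 32.2 CPM for C/D genes.

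Other small stable RNAs were summed in the same way. The 15 genes of that list with recovered reads, which include the RNase MRP RNA gene Rmrp, telomerase RNA gene Terc and the Cajal body RNA genes (Scarna), summed to 191 and 237 CPM in Hypox, 291 and 279 CPM at 30 min, 265 and 179 CPM at 90 min and 288 and 271 CPM at 240 min. The 30 min libraries lay above both Hypox libraries, and the 90 min libraries lay on both sides of them. Rmrp, which made up most of these reads, had 161 and 205 CPM in Hypox, 254 and 246 CPM at 30 min, 233 and 157.5 CPM at 90 min and 250 and 233 CPM at 240 min. The Scarna genes, which resemble snoRNAs in build and modify spliceosomal RNA, summed to 17.9 and 19.1 CPM in Hypox, 23.5 and 23.7 CPM at 30 min, 18.6 and 15.2 CPM at 90 min and 23.3 and 17.7 CPM at 240 min. Of the 12 genes of the list that were tested, 0 passed limma's test at any of the 3 times against Hypox; at an unadjusted p under 0.05, 2 were higher and 1 lower at 30 min, against 3.14% and 3.89% of all genes, 1 was lower at 90 min, against 5.17%, and 1 was higher at 240 min, against 13%. In Rmrp and the Scarna sum, as in the snoRNA sums, the shallower 90 min library was the lowest of the 8; its part in the results was tested only by leaving it out.

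At 30 min, no snoRNA gene passed limma's test against Hypox. Of the 43 tested, 0 were higher and 0 lower at an adjusted p under 0.05, where 0.0531% of all 13172 genes tested were higher and 0.0152% lower. At an unadjusted p under 0.05, 0 were higher and 6 lower (5 H/ACA and 1 C/D), against 3.14% and 3.89% of all genes. Both 30 min libraries lay below both Hypox libraries for 18 of the 43 and above for 2, against 20.6% and 17.7% of all genes. The median log2 fold change was -0.27, against -0.01 over all genes, with medians of -0.33 for H/ACA and -0.24 for C/D. Of the 43, 36 had a log2 fold change below 0, where 52.1% of all genes did, among them all 17 tested C/D genes (from -1.17 for Snord45c to -0.02 for Snord100). In the authors' deposited table, Snora23 and Snora81 were lower at 30 min (ratios of 30 min over Hypox 0.441 and 0.290, adjusted p = 0.000207 and 2.11e-06), against 0.331% of the genes with a value, and none of the 101 was higher, against 0.258%.

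At 90 min, Snora23 was the 1 snoRNA gene of 43 that passed limma's test, and it was lower than in Hypox. Over all genes 0.167% were lower and 0.623% higher, and 0 snoRNA genes were higher. At an unadjusted p under 0.05, 13 were lower (9 H/ACA and 4 C/D) and 0 higher, against 5.17% and 4.68% of all genes. Both 90 min libraries lay below both Hypox libraries for 20 of the 43 and above for 6, against 22.7% and 18.7% of all genes. The median log2 fold change was -0.37 against -0.02 over all genes. It was -0.64 for H/ACA and 0.18 for C/D, so that the median C/D gene and the summed C/D reads differed in sign. Of the C/D genes, 9 had a log2 fold change above 0, none with more than 123 reads in all, and 8 had one below 0, among them Snord17, Snord15b and Snord22.

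In the authors' deposited table, 7 snoRNA genes were lower at 90 min, against 0.932% of genes with a value, and none was higher, against 1.24%. They were Snora21, Snora23, Snora64, Snora68, Snora81, Snord15b and Snord17, with ratios of 90 min over Hypox between 0.238 (Snora64) and 0.501 (Snord17). Of these, 6 did not pass limma's test on the recovered reads, for which the adjusted p was 0.0502 for Snora81, 0.0509 for Snora64, 0.0579 for Snora21, 0.0613 for Snora68, 0.104 for Snord17 and 0.180 for Snord15b.

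**Figure D3:**
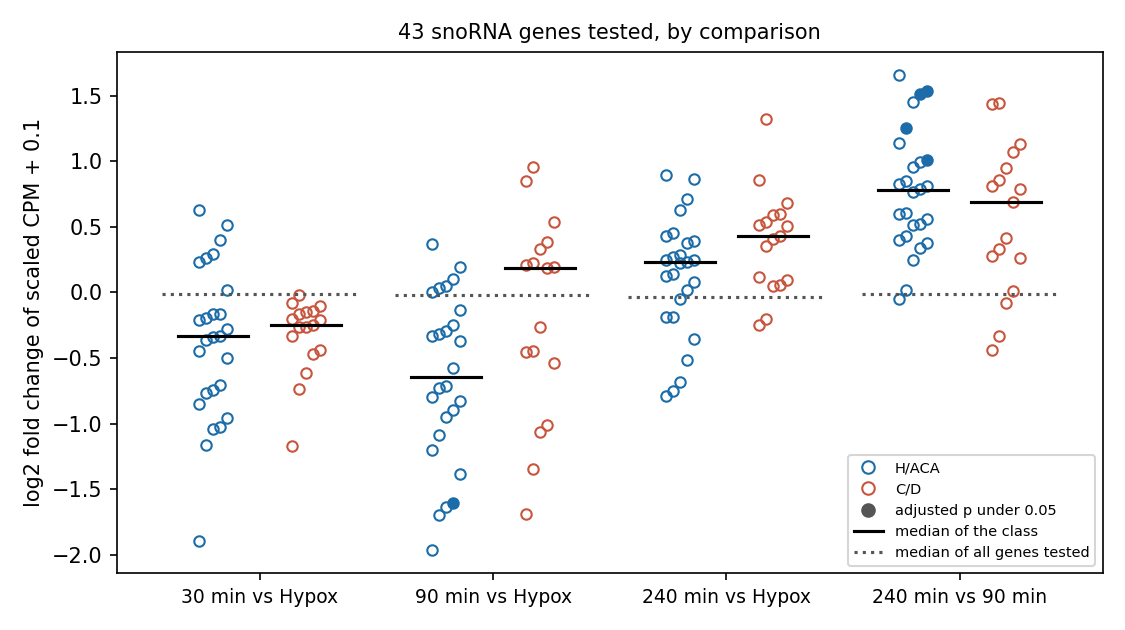
log2 fold change of scaled CPM + 0.1 (y axis) of the 43 snoRNA genes tested in 4 comparisons (x axis), blue for H/ACA and red for C/D. Filled points passed limma's test, solid bars are class medians and dotted lines the median of all genes tested; at 90 min against Hypox the H/ACA median is -0.64 and the C/D median 0.18, and at 240 min against 90 min they are 0.78 and 0.69.

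Snora23, which lies in an intron of the importin gene Ipo7, had 9.80 and 8.33 CPM in Hypox, 3.35 and 4.72 CPM at 30 min, 2.87 and 2.95 CPM at 90 min and 6.64 and 4.04 CPM at 240 min. All 6 libraries after GH lay below both Hypox libraries, and the 90 min libraries were the lowest. At 90 min it was 3.04-fold lower (log2 fold change -1.60 ± 0.24, SE of limma, adjusted p = 0.0161, 92 and 48 reads against 341 and 265). The call was lost without any 1 of the 4 libraries compared, with adjusted p from 0.0845 to 0.142, and the log2 fold change stayed between -1.72 and -1.49. At 30 min the log2 fold change was -1.16 ± 0.24 (adjusted p = 0.218) and at 240 min -0.79 ± 0.24 (adjusted p = 0.0628).

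Snora81, in an intron of the translation initiation helicase gene Eif4a2, had 5.66 and 5.25 CPM in Hypox, 2.13 and 0.901 CPM at 30 min, 1.62 and 1.60 CPM at 90 min and 3.90 and 2.63 CPM at 240 min. Again all 6 libraries after GH lay below both Hypox libraries. Its log2 fold change was -1.89 ± 0.33 at 30 min (adjusted p = 0.106), -1.70 ± 0.33 at 90 min (adjusted p = 0.0502) and -0.75 ± 0.33 at 240 min (adjusted p = 0.176). It passed at 30 min without the deeper 30 min library (adjusted p = 0.00466, log2 fold change -2.47), and without the shallower one its log2 fold change there was -1.31. At 90 min it passed with a pseudocount of 1 CPM (adjusted p = 0.0327), with limma-voom (adjusted p = 0.0305) and with the groups fitted alone (adjusted p = 0.00450), and over all alternatives its adjusted p ran up to 0.320. Snora70, in the ribosomal protein gene Rpl10, came next at 30 min among genes averaging 20 or more reads a library, with a log2 fold change of -1.03 ± 0.28 (adjusted p = 0.452), with 1.18 and 0.742 CPM at 30 min against 1.90 and 2.14 CPM in Hypox.

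Snora64, in the ribosomal protein gene Rps2, had the lowest log2 fold change at 90 min, -1.96 ± 0.39. It had 1.06 and 1.89 CPM in Hypox, 0.883 and 0.742 CPM at 30 min, 0.436 and 0.185 CPM at 90 min and 0.854 and 1.09 CPM at 240 min. The 90 min values rest on 14 and 3 reads. Its level was below both Hypox libraries at 30 and 90 min, while at 240 min 1 of 2 libraries lay between them.

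**Figure D4:**
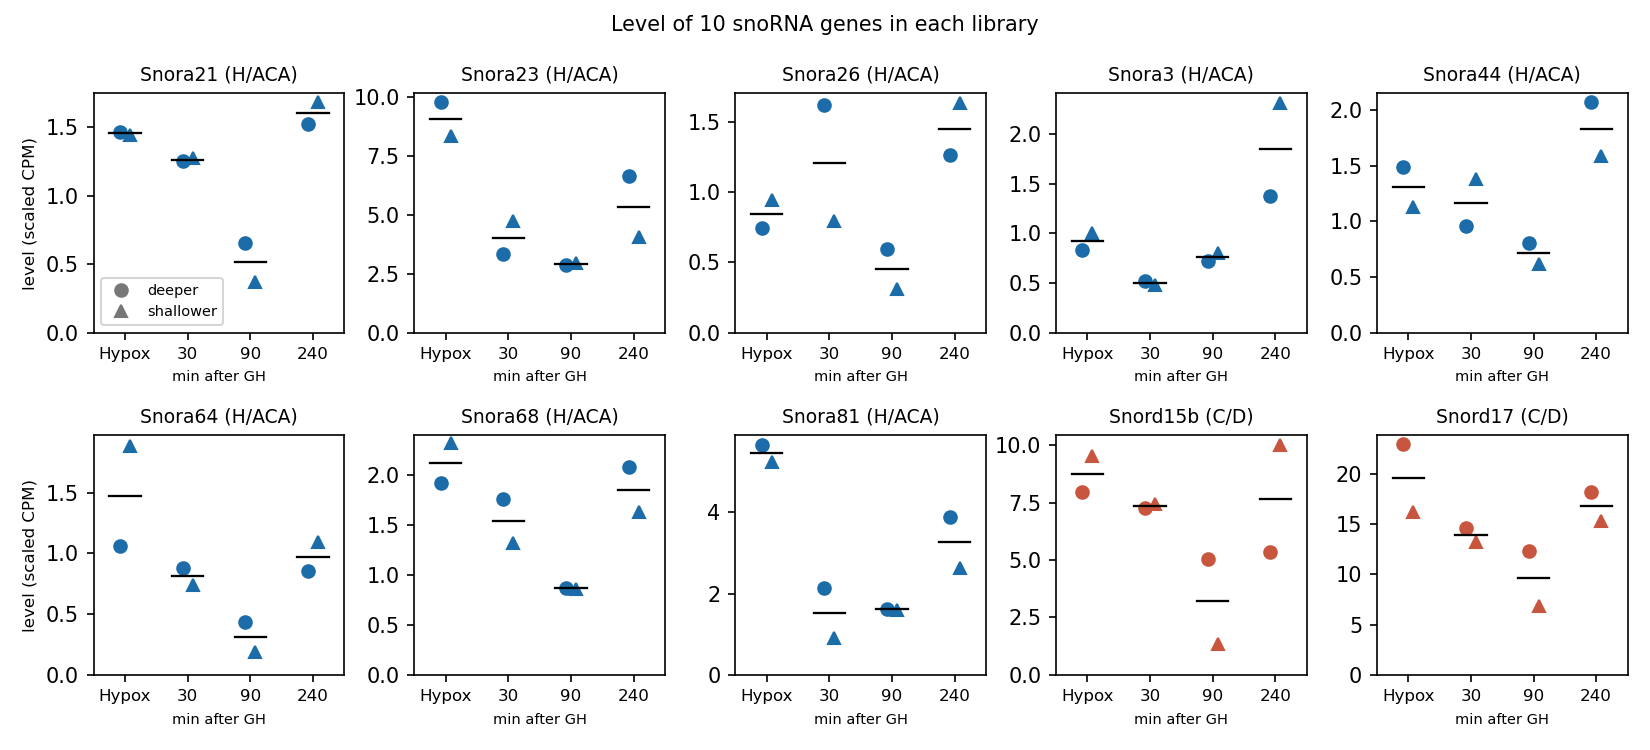
Scaled CPM (y axes, from 0) of the 10 snoRNA genes that passed limma's test in any comparison or were called in the authors' deposited table, in Hypox and at 30, 90 and 240 min after GH (x axes). Circles are the deeper and triangles the shallower library, bars the mean of the 2; Snora23 and Snora81 are below both Hypox libraries at every time, while Snora21 is low at 90 min, at 0.655 and 0.369 CPM.

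Snord17, the most abundant snoRNA gene, had 23.1 and 16.2 CPM in Hypox, 14.6 and 13.3 CPM at 30 min, 12.3 and 6.89 CPM at 90 min and 18.3 and 15.4 CPM at 240 min. The 30 and 90 min libraries lay below both Hypox libraries, with log2 fold changes of -0.47 ± 0.25 and -1.06 ± 0.25. With 1 library left out, these ran from -0.73 to -0.22 at 30 min and from -1.48 to -0.65 at 90 min, the smallest at 30 min when the deeper Hypox library was left out and at 90 min when the shallower 90 min library was. Snord15b had 7.96 and 9.52 CPM in Hypox, 7.24 and 7.42 CPM at 30 min, 5.05 and 1.35 CPM at 90 min and 5.35 and 9.99 CPM at 240 min. Its log2 fold change at 90 min was -1.69 ± 0.47. Without the deeper 90 min library it passed (adjusted p = 0.0321, log2 fold change -2.60), and without the shallower one the log2 fold change was -0.78. Snord22 also had its lowest value in the shallower 90 min library, with 3.18 and 1.17 CPM at 90 min against 3.71 and 6.98 CPM in Hypox. Snora5c had 24 reads and 1 read in the 90 min libraries, or 0.748 and 0.0615 CPM, against 0.948 and 1.16 CPM in Hypox.

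Snora74a did not share the low values at 30 min. It had 7.39 and 5.75 CPM in Hypox, 11.1 and 7.85 CPM at 30 min, 8.85 and 4.80 CPM at 90 min and 8.83 and 6.77 CPM at 240 min. Its 30 min libraries lay above both Hypox libraries, but the test was not passed (0.51 ± 0.28 on the log2 scale, adjusted p = 0.775), and its log2 fold change at 90 min was 0.00 ± 0.28. The next at 30 min, again among genes averaging 20 or more reads, were Snora26 (0.40 ± 0.38) and Snora5c (0.30 ± 0.60). At 90 min the highest in that set were Snora7a (0.03 ± 0.29) and Snora74a, with Snora61 at -0.14 ± 0.47, and none of these passed.

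At 240 min, 0 snoRNA genes passed against Hypox in either direction, where 5.67% of all genes tested were higher and 5.53% lower. At an unadjusted p under 0.05, 2 were higher (Snora3 and Snord100) and 2 lower (Snora23 and Snora81), against 13% and 14.6% of all genes. Snord100 reached the read filter only through its 240 min libraries, where it is high, so its place in that count comes in part from the filter. Both 240 min libraries lay above both Hypox libraries for 16 of the 43 and below for 4, against 26% and 30.0% of all genes. The median log2 fold change was 0.25, against -0.03 over all genes, and 33 of the 43 were above 0, where 46.9% of all genes were. The highest log2 fold changes among genes averaging 20 or more reads were 0.89 ± 0.31 for Snora3, in Rpl27a (adjusted p = 0.0880), 0.71 ± 0.38 for Snora26 and 0.68 ± 0.56 for Snord104, and the lowest after Snora23 and Snora81 was -0.51 ± 0.39 for Snora64. Snord104 had 1.00 and 4.18 CPM at 240 min against 0.920 and 1.70 CPM in Hypox, so that 1 library held most of its reads. Snord100, a guide for methylation of the small subunit RNA in human, had 12 and 15 reads at 240 min against 7 and 4 in Hypox, values given as a description for the same reason. The authors' deposited table called none of the 101 at 240 min, against 3.80% of genes higher and 3.4% lower.

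Between 240 and 90 min, 4 H/ACA genes were higher at 240 min and 0 were lower, against 2.76% and 2.47% of all genes. Snora21, in Rpl23, had 1.52 and 1.68 CPM at 240 min against 0.655 and 0.369 CPM at 90 min, 2.86-fold higher (log2 fold change 1.51 ± 0.28, adjusted p = 0.0159). Snora44, in the non-coding host gene Snhg12, had 2.08 and 1.59 CPM at 240 min against 0.810 and 0.615 CPM at 90 min (1.25 ± 0.29, adjusted p = 0.0363). Snora68 had 2.08 and 1.63 CPM at 240 min against 0.873 and 0.861 CPM at 90 min (1.01 ± 0.25, adjusted p = 0.0436). Snora26, in the non-coding gene Dancr, had 1.26 and 1.63 CPM at 240 min against 0.592 and 0.308 CPM at 90 min (1.53 ± 0.38, adjusted p = 0.0470). The groups did not overlap for any of the 4, which adds little to a call made on the same libraries. With both libraries of each group, Snora21 passed under every alternative (adjusted p 0.0131 to 0.0409), while Snora44 did not pass without a filter or with limma-voom (up to 0.0732), and Snora68 and Snora26 did not in those and in others (up to 0.0850 and 0.0919).

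Both 240 min libraries lay above both 90 min libraries for 29 of the 43 and below for 1, against 24.9% and 25.6% of all genes, and 39 of 43 log2 fold changes were above 0 (median 0.76, against -0.01 over all genes). Snord100, tested only through its 240 min libraries, is 1 of the 43, so its place in these counts comes in part from the filter. At an unadjusted p under 0.05, 16 were higher and 0 lower, against 10.5% and 10.8% of all genes. Unlike at 90 min against Hypox, the medians of both classes were above 0, 0.78 for H/ACA and 0.69 for C/D. The comparison uses the same 90 min libraries as that against Hypox. Without the shallower 90 min library, 0 genes were called, and without the shallower 240 min library Snora23 alone. Between 240 and 30 min, Snora3 was the 1 gene called, with 1.37 and 2.32 CPM at 240 min against 0.515 and 0.477 CPM at 30 min (log2 fold change 1.66 ± 0.31, adjusted p = 0.0104), where 4.71% of all genes were higher and 5.0% lower. Its call was lost without the shallower 240 min library (adjusted p = 0.0699). Between 90 and 30 min 0 snoRNA genes passed, as did 0% of all genes in either direction; at an unadjusted p under 0.05, 9 were lower and 0 higher, against 4.40% and 4.46% of all genes.

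The reads on a snoRNA gene can come from the trimmed snoRNA or from the unspliced transcript of its host. Hosts were sought only among genes listed at a single place, so other hosts would be missed. A host gene on the same strand was found for 84 of the 101, in 60 genes, while for 7 the strand was not settled, Snora74a among them. The other 10 lay in no gene that was searched, among them Snord17 and Snord104. The density on the snoRNA gene was a median of 2.53 times the mean intronic density of its host over the 83 with a value, 3.54 times for H/ACA and 2.28 times for C/D. It was over 10 times for 7 genes, Snora23 (54.5 times Ipo7), Snord15b (18.4 times Rps3), Snora15 (17.4 times Cct6a), Snord93 (15.9 times the gene 2700038G22Rik, on 12 reads), Snora5c (15.3 times Tbrg4), Snord22 (12.2 times Snhg1) and Snora26 (10.8 times Dancr). It was at most 2 times for 33 genes, 24 of them C/D. Snora81 was at 3.05 times the intronic density of Eif4a2 and Snora64 at 1.80 times that of Rps2. The intronic reads of a host may hold the snoRNA's own: with these taken out, Snord15b was at 82.3 times, Snora23 at 77.2 times and Snora81 at 3.42 times.

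**Figure D5:**
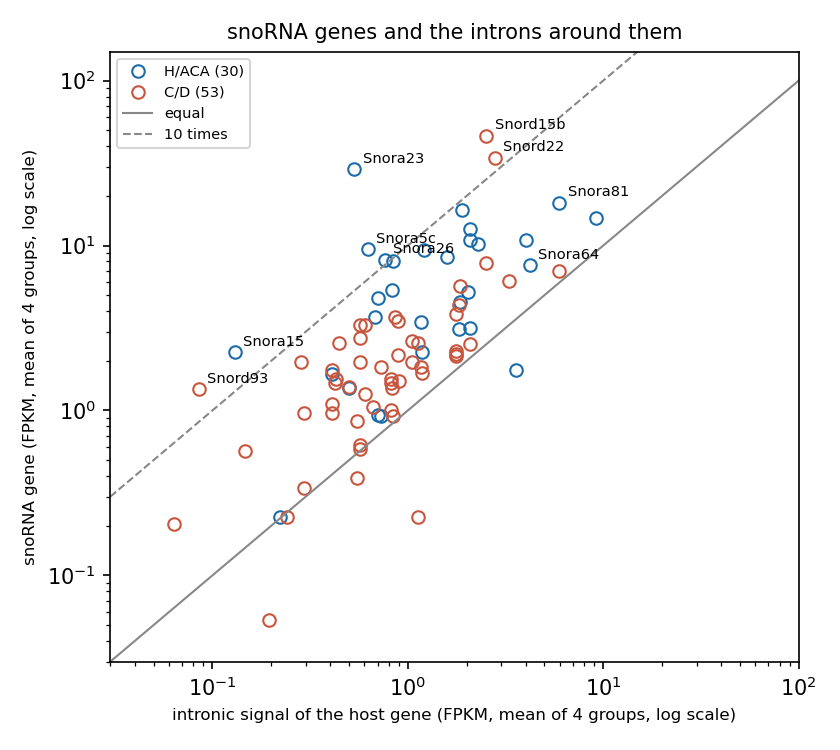
FPKM of 83 snoRNA genes (y axis) against the intronic signal of the host gene in the same unit (x axis), both averaged over the 4 groups and on log scales, blue for H/ACA and red for C/D. The solid line marks equal density and the dashed line 10 times the host's; Snora23 lies 54.5 times above its host Ipo7, and 33 genes lie at or below 2 times.

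None of the tested host genes passed limma's test as lower at any time. Of the 60 host genes, 58 were tested on exonic reads; 0 were higher at 30 min, 1 at 90 min and 10 at 240 min, beside the shares of all genes given above. On intronic reads 57 were tested: 0 were higher at 30 min, against 1.45% of all 11941 genes tested, 5 at 90 min, against 3.30%, and 7 at 240 min, against 4.92%. The shares of all genes that were lower on intronic reads were 1.11%, 4.45% and 6.36%. At an unadjusted p under 0.05, hosts higher on exonic reads were 0, 7 and 21 at the 3 times, against 3.14%, 4.68% and 13% of all genes, and 0 were lower at any of them. On intronic reads 6, 11 and 19 hosts were higher, against 6.35%, 8.57% and 13.1% of all genes, and 2, 3 and 0 were lower, against 7.35%, 11.9% and 14.1%. In comparison with Hypox, Ipo7 exons had log2 fold changes of -0.08 at 30 min, 0.13 at 90 min and 0.49 at 240 min, the last of which passed (adjusted p = 0.0336), and Ipo7 introns of -0.28, -0.05 and 0.05. Eif4a2 exons had -0.05, 0.08 and 0.09 and its introns -0.14, -0.38 and 0.19, of which none passed. Snhg1, host of Snord22, rose in exons at 240 min (1.14, adjusted p = 0.0305) while the log2 fold change of Snord22 was 0.09. Nop58, which holds Snord11 and Snord70 and encodes a C/D core protein, rose at 90 min (1.11, adjusted p = 0.0135) and 240 min (1.84, adjusted p = 0.000382), but its snoRNAs, with 17 and 35 reads in all, were not tested. Rps3 introns, which may hold the reads of Snord15b, had -1.08 at 90 min (adjusted p = 0.0672).

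Several hosts hold more than 1 snoRNA gene. Snhg12 holds Snora44 (10.8 FPKM), Snora61 (12.5), Snora16a (3.16) and Snord99 (2.54). At 240 min against 90 min, Snora44 passed with a log2 fold change of 1.25, while Snora61 had 0.631 and 0.863 CPM at 240 min against 0.561 and 1.05 CPM at 90 min and did not pass. The difference between them was not tested. Rpl13a holds Snord32a, Snord33, Snord34 and Snord35a, known as a group of methylation guides, at 2.12 to 3.84 FPKM, or 1.21 to 2.18 times the intronic density of Rpl13a. They held 63, 37, 28 and 43 reads in all, and no call was made for the 2 tested, Snord32a and Snord35a. The genes 2410006H16Rik, 1810032O08Rik and Rpl23a hold 3 C/D genes each, Snord49a, Snord49b and Snord65, then Snord1a, Snord1b and Snord1c, then Snord4a, Snord42a and Snord42b, with 11 to 40 reads in all and none tested. Rps3 holds Snord15b with 1465 reads and Snord15a with 243. Snora65, in Rpl12, had 8 and 8 reads at 30 min and 12 and 5 at 90 min, against 26 and 22 in Hypox, and did not pass.

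Genes for proteins that bind the C/D snoRNAs were higher at 240 min than in Hypox. All 4 core protein genes of that class passed, where 5.67% of all genes did: the methyltransferase fibrillarin gene Fbl (0.67 ± 0.17, adjusted p = 0.0320), Nop56 (1.16 ± 0.19, adjusted p = 0.00524), Nop58 (1.84 ± 0.16, adjusted p = 0.000382) and Nhp2l1 (0.78 ± 0.15, adjusted p = 0.0110). Nop58 had 19.3 and 20.9 CPM at 240 min against 5.89 and 5.22 CPM in Hypox. Of the 4 H/ACA core protein genes, Gar1 was higher (1.96 ± 0.38, adjusted p = 0.0108) and the pseudouridine synthase gene Dkc1, Nhp2 and Nop10 did not pass (0.16, 0.63 and 0.27). Of 12 assembly genes, 2 were higher at 240 min, Nolc1 (1.86 ± 0.23, adjusted p = 0.00209) and Shq1 (0.82 ± 0.22, adjusted p = 0.0391). Of 8 trimming and decay genes, 1 was higher, the exosome nuclease gene Dis3 (0.60 ± 0.15, adjusted p = 0.0329). On exonic reads, 0 of these genes passed at 30 min, where 1 assembly gene was lower at an unadjusted p under 0.05. At 90 min Nop58 alone passed, where 0.623% of all genes were higher. At an unadjusted p under 0.05, all 4 C/D core genes and 2 assembly genes were higher at 90 min, against 4.68% of all genes. None passed as lower at any time.

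The tissue carried liver markers throughout: the 8 hepatocyte markers summed to 53041 to 73279 CPM in every library, and no marker of the lists was at 0 in every library. At 240 min both libraries lay below both Hypox libraries for 6 of the 8 lists of cell type markers. The hepatocyte markers summed to 53041 to 58465 CPM at 240 min against 59637 to 68838 CPM in Hypox, the sinusoidal endothelial markers to 122 to 128 CPM against 163 to 169 CPM and the Kupffer cell markers to 49.2 to 66.7 CPM against 69.0 to 89.3 CPM. The stellate cell markers summed to 114 to 116 CPM at 240 min against 127 to 129 CPM in Hypox, the neutrophil markers to 6.99 to 7.02 CPM against 9.83 to 11.2 CPM and the B and T cell markers to 2.77 to 3.56 CPM against 3.76 to 4.31 CPM. The cholangiocyte markers were above, at 14.5 to 22.7 CPM at 240 min against 7.10 to 9.81 CPM in Hypox, and the erythroid markers overlapped, at 59.3 to 105 CPM against 70.4 to 87.2 CPM. At 30 min the neutrophil markers, at 5.99 to 8.69 CPM, and the sinusoidal endothelial markers, at 156 to 160 CPM, were below Hypox. The erythroid markers at 30 min were above, at 88.5 to 119 CPM, and the other lists overlapped Hypox. At 90 min the neutrophil markers were above Hypox, at 12.2 to 17.3 CPM, and the stellate cell markers slightly so, at 129 to 131 CPM. The sinusoidal endothelial markers at 90 min were below, at 151 to 158 CPM, as were the B and T cell markers, at 3.14 to 3.74 CPM. The hepatocyte, Kupffer cell, cholangiocyte and erythroid markers at 90 min overlapped those of Hypox, at 62929 to 73279, 61.3 to 84.7, 6.21 to 7.85 and 70.8 to 108 CPM. Their part in the snoRNA values was not tested.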

How the data were processed

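RNA was extracted with Trizol, depleted of ribosomal RNA and made into strand-specific libraries, per the labels' protocols; TopHat2, featureCounts, edgeR and build mm9 are named in the submitters' processing notes, with no versions. The authors deposited mean FPKM per group over gene bodies, intronic signal in the same unit, a ratio of GH over Hypox and its adjusted p-value, per the file headers. The ratio is not the plain quotient of the mean FPKM values. Snord64, for example, had 0.403 FPKM at 30 min, 0 FPKM in Hypox and a ratio of 5.87. No count per library is in that table. Whole reads per library were recovered from the group means of FPKM, the gene lengths and the library totals: 18356 of 18359 genes above 0 and all 101 snoRNA genes gave whole numbers that match the deposited means to 10 decimals. In each group the 2 libraries are called deeper and shallower, since the means do not tell which pool is which.

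Reads were divided by library totals and a median-of-ratios factor (0.916 to 1.05, from genes averaging 50 or more reads) and tested with limma 3.58.1 in R 4.3.3 on log2(CPM + 0.1) over the 13172 genes that reached 10 reads in 2 or more libraries, in 1 fit of the 8 libraries with 4 residual and 6.37 prior degrees of freedom. p-values were adjusted by Benjamini-Hochberg over all genes, 0.05 was the threshold, and SE is the standard error of the log2 fold change. The added 0.1 CPM makes fold changes of low genes too small. Intronic reads were tested likewise. The steps were tested on simulated data. Snora19 and Snord58b are listed at 2 places and are uncertain, and no columns of per-sample values were left unmapped (0). Sequences came from GENCODE M21 (GRCm38), whose coordinates are printed, while the values were counted on mm9; none were converted. The snoRNA genes and all gene lists were chosen with earlier results of these data known. Genes were named if called by limma or in the authors' deposited table, among the 8 most abundant of a class, among the 3 largest log2 fold changes per time and direction with a mean of 20 reads, on a list of well-studied snoRNAs, or in 1 of the hosts holding most snoRNA genes.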

Additional observations from a re-analysis of the deposited data

Results flagged for a closer look

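5 H/ACA genes had effects that differed between times by the limma contrast of the times themselves. Between 240 and 90 min, the log2 fold change was 1.51 for Snora21, 1.53 for Snora26, 1.25 for Snora44 and 1.01 for Snora68. These were 4 of the 43 tested, where 2.76% of all genes were higher. Between 240 and 30 min it was 1.66 for Snora3, 1 of the 43 tested, where 4.71% of all genes were higher. Groups of 2 libraries are too small for a check of single outlying libraries.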

How the results depend on the processing

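No paired analysis was possible because the deposited columns are group means that carry no pool number. Against Hypox, the count of lower genes at 90 min (1) was 2 with a pseudocount of 1 CPM, with library totals as the only scaling, with limma-voom and with the groups fitted alone, Snora23 each time, with Snora64 under library totals and Snora81 under the other 3, and 0 to 2 with 1 library left out (the 2, without the deeper 90 min library, were Snora5c and Snord15b). At 30 min the count of lower genes (0) was 0 to 1 with 1 library left out. At 240 min it (0) was 1 with limma-voom (Snora23) and 0 to 1 with 1 library left out. Between 240 and 90 min the count of higher genes (4) was 1 without a filter and 1 with limma-voom (Snora21 in both), 2 with the groups fitted alone and 0 to 5 with 1 library left out. Between 240 and 30 min (1) it was 3 with library totals only, 3 without a filter and 0 to 2 with 1 library left out. The log2 ratio of summed CPM at 30 min was -0.60 for H/ACA genes without Snora74a, -0.25 for C/D genes without Snord17 and -0.41 for C/D genes with library totals only. The count of snoRNA genes over 10 times the host's intronic density (7) was 50 over 2 times, 0 over 100 times and 15 with the snoRNA reads taken out of the introns. With 1 library left out, log2 fold changes that changed sign ran from -0.070 to 0.87 for Snora26 and -0.41 to 0.077 for Snora44 at 30 min, and from -0.69 to 0.20 for Snord15b and -0.46 to 0.048 for Snord17 at 240 min, none of which passed. The cause of these shifts was not tested. The other 99 counts of calls stayed within 1.5 times, but most of them were 0 in the main fit and stayed at 0. The other 33 sums stayed within the spread of libraries. For sums with 1 library left out this was fixed in advance, since leaving out 1 of 2 libraries cannot shift the ratio beyond that spread. Alternatives for the comparisons between times, the removal of snoRNA reads from introns and leaving out libraries from the sums were chosen after seeing the data. In fits without 1 library, the lone library is assumed to vary like the other groups. The median SE was 0.41 for snoRNA genes and 0.20 for all genes.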
